A study of Mus musculus with 4 samples.

Results

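The genes described here are 43 DNA repair and checkpoint genes, out of 23359 gene rows in the table. They were chosen by symbol for their known roles in homologous recombination, the Fanconi pathway, mismatch repair, excision repair, end joining and the damage checkpoint, and all 43 were found. The cells were tumour-initiating stem-like cells, a population isolated from liver tumours of C57BL/6 mice and grown with serum, EGF and dexamethasone. One culture received all-trans retinoic acid (ATRA, which activates the retinoic acid receptors) together with suberoylanilide hydroxamic acid (SAHA, an inhibitor of histone deacetylases), one received SAHA at 0.5 µg/ml, one received ATRA at 5 µg/ml, and one received vehicle. The treated cultures were exposed for 16 hours. The sources used here do not give how long the vehicle culture was kept, and the doses of the combination are taken to be those of the single compounds. Each group had 1 library, so no difference below has a replicate check, and no error or p-value is given.

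Cells repair broken or altered DNA by several routes. Homologous recombination copies the lost sequence from the sister chromatid and works mainly in S and G2 phase. End joining rejoins broken ends directly, excision and mismatch repair cut out altered or mispaired bases, and the Fanconi pathway unhooks crosslinks between strands. The kinases ATM and ATR sense damage and stalled replication, and their effector kinases CHK2 and CHK1 hold the cell cycle. Many of the recombination and checkpoint genes are known targets of the E2F transcription factors, which makes their mRNA levels depend on how many cells are dividing. In bulk samples, a change in the share of dividing cells and a change in mRNA per cell cannot be told apart.

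Levels are in FPKM (fragments per length of transcript and per total of mapped fragments), a unit that lets different genes be compared per length. An FPKM ratio is the value of one library over that of another. Depth was estimated from the smallest spacing of low values, by which a kilobase of transcript at 1 FPKM held about 106 fragments in the combination library, 97.8 in the SAHA library, 96.2 in the ATRA library and 97.3 in the vehicle library. On that estimate each member was taken in the library where it had the fewest fragments, which differs between members. The median of these counts was 368 fragments, for which counting alone gives an error of 5.21%. The lowest was Ddb2, with about 45 fragments in the vehicle library and a counting error of 14.9%, and 3 members (Nbn, Lig4 and Ddb2) had the thinnest coverage. These errors cover counting only and say nothing about how cultures vary. In every library Ptprc, Lyz2 and Csf1r (macrophage), Pecam1, Cdh5, Kdr and Tek (endothelial), Cd3e, Cd79a and Nkg7 (lymphocyte) and Alb, Ttr, Apoa1 and Hnf4a (hepatocyte) were under 0.1 FPKM. Hepatocyte marker genes summed to at most 0.367 FPKM in any library, although the labels name liver as the tissue. Cd68 made up nearly all of the macrophage sum, which was 4.34 FPKM with the combination, 5.31 with SAHA, 2.45 with ATRA and 1.94 with vehicle. The mesenchymal gene Vim was at 362 FPKM in the combination library, 319 in SAHA, 432 in ATRA and 562 in vehicle. S100a4, another mesenchymal gene, differed by the most FPKM among the markers, at 18.6 FPKM in the combination library, 138 in SAHA, 467 in ATRA and 557 in vehicle. Pdgfrb was at 0.107 FPKM in the combination library, 0.104 in SAHA, 1.07 in ATRA and 1.55 in vehicle. Of the bile duct genes, Krt7 lay between 1.83 and 2.99 FPKM. Sox9 was at 0.857 FPKM in the combination library, 0.910 in SAHA, 2.69 in ATRA and 1.19 in vehicle. Krt19 was at 0.071 FPKM in the combination library, 0.127 in SAHA, 0.778 in ATRA and 0.102 in vehicle. The erythroid gene Hba-a1 was at 0.941 FPKM in the combination library, 0.0584 in vehicle and lower still in SAHA and ATRA. The part of these marker differences in the repair gene values was not tested, and Col1a1 and Col1a2 were under 0.1 FPKM.

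Most of these genes were expressed at low levels. The median of the 43 was 1.38 FPKM in the combination library, 1.04 in SAHA, 1.53 in ATRA and 1.43 in vehicle. The mean over the 4 libraries had a median of 1.55 FPKM over the 43 genes, against 3.32 over the 8616 genes that average 1 FPKM or more, a set to which 17 of the 43 do not belong. Ddb1, which encodes a subunit of a ubiquitin ligase that also serves outside repair, had the highest value in each library (34.8 in the combination, 29.5 in SAHA, 37.5 in ATRA and 39.5 in vehicle). The lowest were Chek1 in the combination library (0.393), Nbn in SAHA (0.269) and Lig4 in ATRA (0.199) and vehicle (0.154). SAHA was the library with the lowest value for 26 of the 43 genes, and the combination was the one with the highest for 21. The same counts were not made over all genes. Over the 11051 genes averaging 0.3 FPKM or more, the median FPKM ratio was 0.868 for SAHA against vehicle. It was 1.12 for the combination against SAHA.

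**Figure D1:**
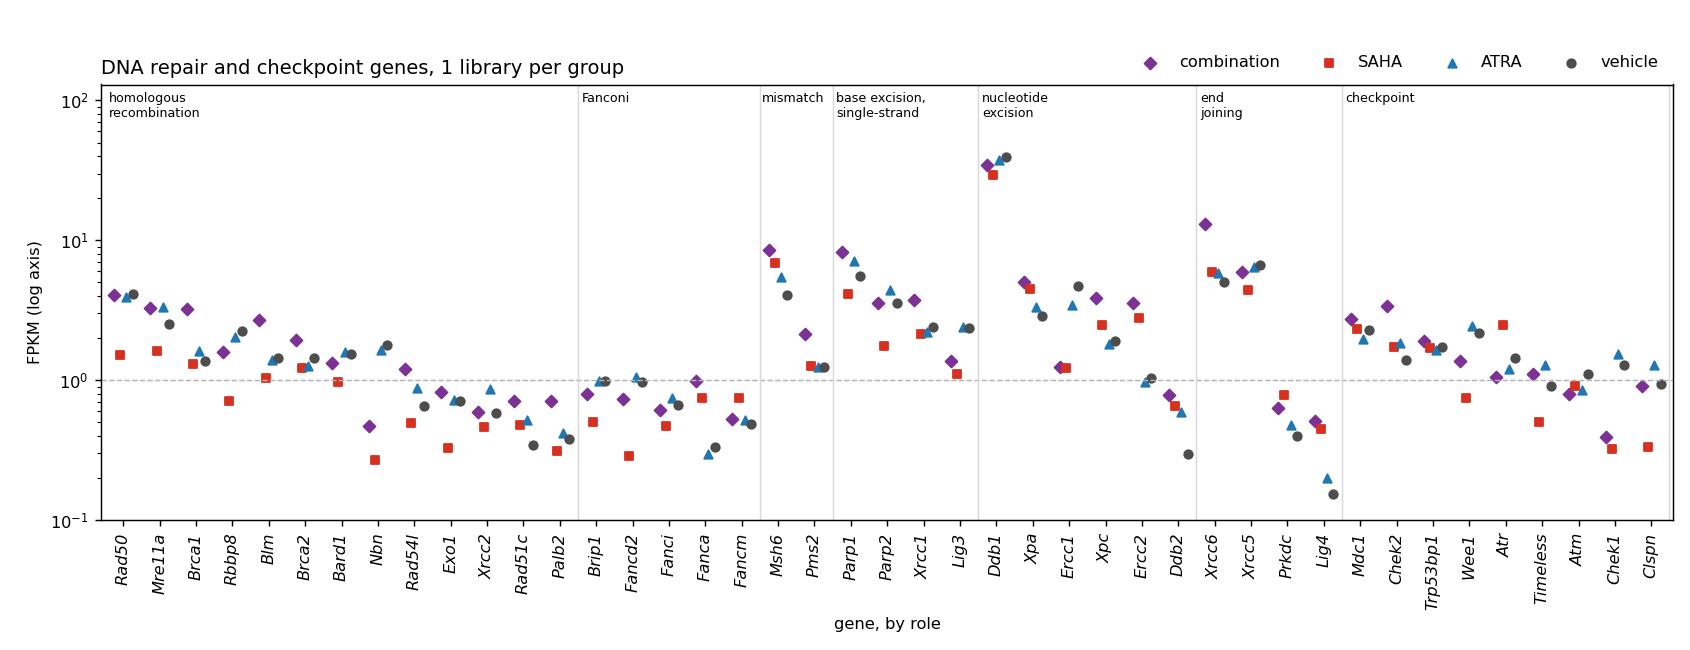
FPKM (log axis) of each of the 43 genes in the combination, SAHA, ATRA and vehicle libraries, 1 point per library, grouped by role and ordered by mean level, with a dashed line at 1 FPKM. Ddb1 lies between 29.5 and 39.5 FPKM, most other genes lie near 1 FPKM, and the SAHA point is the lowest for 26 genes. That count was not made over all genes.

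A pair of size rules was used side by side. The first counts a gene whose FPKM ratio is at least 2-fold, over the 11051 genes averaging 0.3 FPKM or more, a limit set so that all 43 members are included. The second counts a gene whose log2(FPKM + 1) differs by 1 or more, over the 8616 genes that average 1 FPKM or more. That scale understates differences of low genes, and 26 of the 43 members are in it. A member of the other 17 may be missing from the second count for its low level alone.

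With the combination against SAHA, nearly all of these genes were higher in the combination. The FPKM ratio was above 1 for 39 of 43 genes, with a median of 1.56, against a median of 1.12 over the 11051 genes. Most other genes were also higher. Of the 8616 genes averaging 1 FPKM or more, 5746 were higher in the combination, as were 25 of the 26 members among them. At least 2-fold higher were 14 of the 43 (32.6%), against 6.61% of the 11051, and 1 (2.33%), the checkpoint kinase gene Atr, was at least 2-fold lower, against 3.46%. On the log2(FPKM + 1) scale 2 of 26 members were higher (Xrcc6 at 1.03 and Rad50 at 1.02), against 3.04% of all counted genes, and 0 were lower, against 0.929%. After dividing by the median ratio of all 11051 genes, a step added after the values were seen, 7 of the 43 were at least 2-fold higher, against 4.14% of all, and 36 were above 1. After the same centring on the log2(FPKM + 1) scale, 0 of the 26 were higher.

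With SAHA against vehicle, the members that differed were mostly lower, at about the rate of all genes. At least 2-fold lower were 11 of 43 (25.6%), against 25.0% of the 11051 genes, and 4 (9.30%) were at least 2-fold higher, against 14.2%. The median ratio was 0.796, against 0.868 over all of these genes. On the log2(FPKM + 1) scale 3 of 26 were lower (Ercc1, Nbn and Rad50), against 16.0% of all counted genes, and 0 were higher, against 7.88%. The SAHA library stands in this comparison and in the one before, so a gene that is low in that single library counts toward both.

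With the combination against vehicle, more members were higher than lower. At least 2-fold higher were 10 of 43 (23.3%), against 18.0% of the 11051 genes, and 3 (6.98%) were at least 2-fold lower, against 21.0%. The median ratio was 1.21, against 0.990 over all of these genes. On the log2(FPKM + 1) scale 2 of 26 were higher (Xrcc6 at 1.22 and Ercc2 at 1.16), against 11.1%, and 1 was lower (Ercc1 at -1.34), against 12.6%. With the combination against ATRA, 5 of 43 (11.6%) were at least 2-fold higher, against 17.4%, and 3 (6.98%) at least 2-fold lower, against 20.5%. On the log2(FPKM + 1) scale 2 of 26 were higher there (Ercc2 at 1.21 and Xrcc6 at 1.04), against 10.5%, and 0 were lower, against 11.9%.

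ATRA alone left these genes close to vehicle. The FPKM ratio of ATRA to vehicle lay between 0.734 (Ercc1) and 2.0 (Ddb2), with a median of 1.07. At least 2-fold higher was 1 of 43 (2.33%), against 2.24% of the 11051 genes, and 0 were at least 2-fold lower, against 2.51%. On the log2(FPKM + 1) scale 0 of 26 were higher, against 0.917%, and 0 were lower, against 1.20%.

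**Figure D2:**
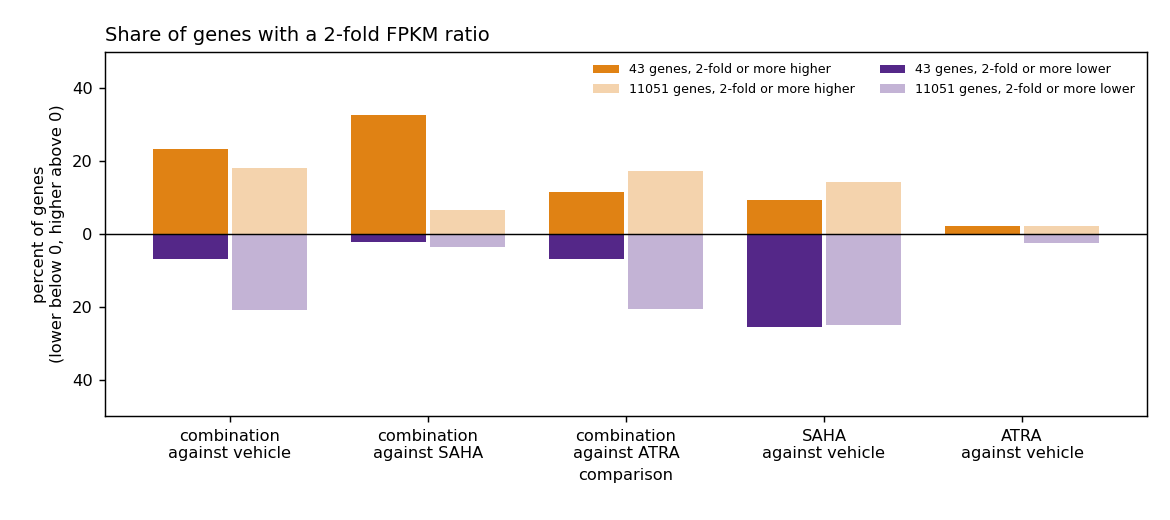
Percent of the 43 genes (solid bars) and of the 11051 genes averaging 0.3 FPKM or more (pale bars) whose FPKM ratio was at least 2-fold higher (above 0) or lower (below 0) in each of the 5 comparisons. In the combination against SAHA 32.6% of the 43 were higher, against 6.61% of all, and in SAHA against vehicle 25.6% were lower, against 25.0%.

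5 members passed the log2(FPKM + 1) mark in some comparison: Xrcc6, Ercc2, Ercc1, Nbn and Rad50. Promoters of Xrcc6, Ercc2 and Ercc1 are shown because these genes had the largest differences among those with an entry in the RefSeq table, that of Chek1 because its FPKM was about 4-fold lower with SAHA than with vehicle (ratio 0.249), and that of Brca1 because a second gene starts inside it. These 5 were picked after their values were seen. Each is a RefSeq promoter of 300 bases on GRCm38.p6, 250 before and 50 after the start annotated by RefSeq, with E2F-type motifs and CCAAT boxes in capitals on either strand. RefSeq and GENCODE starts can differ. The Xrcc6, Ercc1 and Chek1 promoters shown lie inside the GENCODE spans of those genes given below, downstream of the GENCODE starts.
Xrcc6, chr15:82016119-82016418, plus strand: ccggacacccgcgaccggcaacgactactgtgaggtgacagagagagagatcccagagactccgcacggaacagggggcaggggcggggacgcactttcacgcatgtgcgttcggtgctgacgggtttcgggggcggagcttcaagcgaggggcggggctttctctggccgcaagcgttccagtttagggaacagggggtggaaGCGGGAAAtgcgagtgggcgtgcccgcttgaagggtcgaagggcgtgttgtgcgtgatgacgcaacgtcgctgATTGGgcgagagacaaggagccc
Ercc2, chr7:19381767-19382066, plus strand: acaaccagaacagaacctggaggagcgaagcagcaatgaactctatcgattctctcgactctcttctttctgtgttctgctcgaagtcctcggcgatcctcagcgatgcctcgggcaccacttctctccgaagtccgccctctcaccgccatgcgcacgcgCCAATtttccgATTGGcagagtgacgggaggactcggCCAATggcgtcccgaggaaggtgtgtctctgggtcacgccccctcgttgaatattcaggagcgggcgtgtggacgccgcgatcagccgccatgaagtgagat
Ercc1, chr7:19344821-19345120, plus strand: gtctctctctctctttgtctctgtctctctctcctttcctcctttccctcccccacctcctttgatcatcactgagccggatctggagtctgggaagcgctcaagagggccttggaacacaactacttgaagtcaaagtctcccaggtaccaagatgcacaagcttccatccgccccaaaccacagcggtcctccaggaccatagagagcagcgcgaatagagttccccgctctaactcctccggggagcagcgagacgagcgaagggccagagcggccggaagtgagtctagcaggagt
Chek1, chr9:36726609-36726908, minus strand: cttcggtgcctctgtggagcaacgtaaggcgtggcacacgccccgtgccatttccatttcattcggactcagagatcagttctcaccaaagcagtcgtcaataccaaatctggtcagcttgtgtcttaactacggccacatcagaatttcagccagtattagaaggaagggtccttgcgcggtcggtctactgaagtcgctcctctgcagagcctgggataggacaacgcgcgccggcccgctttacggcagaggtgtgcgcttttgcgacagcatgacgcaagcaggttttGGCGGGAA
Brca1, chr11:101551906-101552205, minus strand: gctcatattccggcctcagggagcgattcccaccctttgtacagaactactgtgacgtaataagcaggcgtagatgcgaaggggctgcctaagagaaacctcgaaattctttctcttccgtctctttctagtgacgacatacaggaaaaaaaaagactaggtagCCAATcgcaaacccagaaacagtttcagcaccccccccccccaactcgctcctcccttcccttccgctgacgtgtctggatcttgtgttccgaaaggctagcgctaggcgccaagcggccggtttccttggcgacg

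RefSeq promoters matched 33 of the 43 members. The E2F-type search used the letters TTTCCCGC, TTTGGCGC, TTTCGCGC, TTTGCCGC and TTCCCGCC on both strands, of which the first and the last can overlap. They were found in 10 of the 33 promoters (30.3%), against 3.97% of 27025 promoters of the same length. The 10 were those of Bard1, Clspn, Chek2, Brca2, Chek1, Rad51c, Fancm, Xrcc6, Mdc1 and Msh6. CCAAT was found in 19 (57.6%), against 37.9% of all, and 3 copies stood in the Ercc2 promoter. The last of the E2F-type letters was added after promoter sequences had been seen, and without it the count was 8 (24.2%), against 2.32% of all, and Chek1 and Fancm were not among them. The letters TTTGAA, a cell cycle element, were found in 1 (3.03%, Bard1), against 18.1%, and TGACGTCA, the cyclic AMP response element, in 2 (6.06%), against 1.88%. The promoters compared were alike in length only, and were not matched for base composition or for expression of the gene. The part of either in these shares was not tested. Only the first listed promoter of each gene was searched. These matches are letters in a window and not measured binding sites.

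Homologous recombination begins with the MRN complex of MRE11, RAD50 and NBN, which binds broken ends and starts to trim them. Rad50 (chromosome 11, 53649519 to 53707319, minus strand) was at 4.09 FPKM with the combination, 1.51 with SAHA, 3.95 with ATRA and 4.13 with vehicle. The SAHA library was low and the other libraries lay close together. After centring on the median of all genes, Rad50 no longer passed the log2(FPKM + 1) mark, at -0.91 in SAHA against vehicle and 0.86 in the combination against SAHA. Mre11a was also lowest with SAHA, with 3.27 FPKM with the combination, 1.62 with SAHA, 3.32 with ATRA and 2.52 with vehicle. Nbn (chromosome 4, 15957925 to 15992589, plus strand) was at 0.472 FPKM with the combination, 0.269 with SAHA, 1.64 with ATRA and 1.78 with vehicle, so that it was low in both libraries that had received SAHA. Its FPKM ratio of 0.151 for SAHA against vehicle was the lowest of the 43 genes, while its ratio for the combination against vehicle was 0.265.

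Resection and unwinding genes were also low with SAHA. Rbbp8, which encodes the resection factor CtIP, was at 1.58 FPKM with the combination, 0.707 with SAHA, 2.05 with ATRA and 2.26 with vehicle. Exo1, the exonuclease that extends resection, was at 0.823 FPKM with the combination, 0.329 with SAHA, 0.727 with ATRA and 0.704 with vehicle. Blm, the Bloom syndrome helicase gene, stood higher in the combination than in any other library: 2.69 FPKM with the combination, 1.04 with SAHA, 1.39 with ATRA and 1.45 with vehicle.

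The genes of the BRCA proteins and their partners, which act after resection, were close to vehicle with SAHA and above it with the combination, other than Bard1. Brca1 was at 3.22 FPKM with the combination, 1.30 with SAHA, 1.62 with ATRA and 1.38 with vehicle, 2.32-fold the vehicle level with the combination. Brca2 was at 1.95 FPKM with the combination, 1.23 with SAHA, 1.26 with ATRA and 1.43 with vehicle. Palb2, which links both proteins, was at 0.704 FPKM with the combination, 0.314 with SAHA, 0.416 with ATRA and 0.380 with vehicle. Bard1, the partner of BRCA1, was at 1.33 FPKM with the combination, 0.968 with SAHA, 1.60 with ATRA and 1.55 with vehicle, and did not follow Brca1 above vehicle. Rad51c, another recombination gene, was at 0.714 FPKM with the combination, 0.481 with SAHA, 0.519 with ATRA and 0.343 with vehicle, and Xrcc2, which also acts in recombination, lay between 0.464 and 0.864 FPKM. Rad54l, a motor protein gene of strand exchange, was at 1.20 FPKM with the combination, 0.495 with SAHA, 0.880 with ATRA and 0.656 with vehicle. Its exons overlap those of Lrrc41 over 1184 bases. Lrrc41 was at 1.37 FPKM with the combination, 1.14 with SAHA, 5.95 with ATRA and 4.95 with vehicle, and its part in the Rad54l values was not tested. Of the 13 recombination genes, all 13 had a higher FPKM with the combination than with SAHA, 8 of them at least 2-fold, with a median ratio of 2.24, against 6.61% and a median of 1.12 over the 11051 genes. With SAHA against vehicle 12 of the 13 were below 1, 4 of them (30.8%) at least 2-fold lower (Exo1, Nbn, Rad50 and Rbbp8), a share near the 25.0% of the 11051 genes. Of the 8616 genes averaging 1 FPKM or more, 5746 were higher with the combination than with SAHA, and 4875 were lower with SAHA than with vehicle.

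The 5 Fanconi genes all had a mean under 1 FPKM and differed in which libraries were high. Fancd2, the protein that the Fanconi core complex marks with ubiquitin, was at 0.735 FPKM with the combination, 0.287 with SAHA, 1.06 with ATRA and 0.976 with vehicle. Its partner Fanci lay between 0.467 FPKM (SAHA) and 0.750 (ATRA). Fanca, a core complex gene, was higher in both libraries with SAHA, at 0.983 FPKM with the combination, 0.740 with SAHA, 0.298 with ATRA and 0.332 with vehicle. Its exons overlap those of Zfp276 over 920 bases, and Zfp276 was at 0.984 FPKM with the combination, 0.860 with SAHA, 0.434 with ATRA and 0.569 with vehicle, and how reads were shared out between them, and its part in the Fanca values, was not tested. Brip1, a helicase gene, was at 0.794 FPKM with the combination, 0.500 with SAHA, 0.986 with ATRA and 0.982 with vehicle, and Fancm, a translocase gene, lay between 0.484 and 0.742 FPKM.

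Both mismatch repair members were highest with the combination. Msh6, a subunit of the complex that finds mismatches, was at 8.51 FPKM with the combination, 6.89 with SAHA, 5.44 with ATRA and 4.04 with vehicle. It was above vehicle in each treated library, and 2.11-fold with the combination. Pms2, a subunit of the nicking complex that acts next, was at 2.13 FPKM with the combination and between 1.24 and 1.26 in the other libraries.

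In base excision and single-strand break repair, SAHA gave the lowest value for all 4 members. Parp1, the main poly(ADP-ribose) polymerase gene and a break sensor, was at 8.29 FPKM with the combination, 4.11 with SAHA, 7.13 with ATRA and 5.51 with vehicle. Parp2 was at 3.56 FPKM with the combination, 1.76 with SAHA, 4.42 with ATRA and 3.56 with vehicle. Both were about 2-fold higher with the combination than with SAHA, at an FPKM ratio of 2.02. Xrcc1, the scaffold of this pathway, was at 3.73 FPKM with the combination, 2.13 with SAHA, 2.20 with ATRA and 2.38 with vehicle. Lig3, its ligase, differed from these by staying low with the combination, at 1.38 FPKM with the combination, 1.11 with SAHA, 2.40 with ATRA and 2.36 with vehicle, and its exons overlap those of Rffl.

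Nucleotide excision repair genes split in direction. Ercc1, a subunit of the nuclease that cuts on one side of the lesion (chromosome 7, 19344778 to 19356524, plus strand), was at 1.25 FPKM with the combination, 1.22 with SAHA, 3.45 with ATRA and 4.70 with vehicle. Both libraries with SAHA were low, at FPKM ratios of 0.265 and 0.260 to vehicle. Ercc2, which encodes the XPD helicase of the factor TFIIH (chromosome 7, 19382010 to 19395694, plus strand), was instead higher in both libraries with SAHA, at 3.55 FPKM with the combination, 2.79 with SAHA, 0.969 with ATRA and 1.04 with vehicle. Its ratio to vehicle was 3.41 with the combination and 2.68 with SAHA. Its exons overlap those of Klc3 over 744 bases, and Klc3 was at 1.85 FPKM with the combination, 2.71 with SAHA, 0.788 with ATRA and 0.809 with vehicle. Ercc1 overlaps Cd3eap over 106 bases, and Cd3eap was at 2.38 FPKM with the combination, 2.82 with SAHA, 1.57 with ATRA and 2.93 with vehicle. The part of these neighbours in the values was not tested.

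The lesion sensors were higher with the combination than with vehicle, other than Ddb1. Xpc, the sensor of distorted DNA, was at 3.88 FPKM with the combination, 2.49 with SAHA, 1.81 with ATRA and 1.91 with vehicle. Ddb2, the sensor of ultraviolet lesions, was at 0.782 FPKM with the combination, 0.649 with SAHA, 0.595 with ATRA and 0.297 with vehicle, but it is the member with the fewest fragments and its exons overlap those of Acp2. Xpa, a damage verification factor gene, was at 5.03 FPKM with the combination, 4.48 with SAHA, 3.33 with ATRA and 2.88 with vehicle, and its exons overlap those of Ncbp1 over 77 bases.

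In end joining, the 2 subunits of Ku, the ring that binds broken ends, differed in their levels across libraries. Xrcc6, which encodes Ku70 (chromosome 15, 81987835 to 82040085, plus strand), was at 13.1 FPKM with the combination, 5.91 with SAHA, 5.85 with ATRA and 5.06 with vehicle. The combination library was high and the other libraries lay close together. Xrcc5, which encodes Ku80, was at 5.92 FPKM with the combination, 4.41 with SAHA, 6.45 with ATRA and 6.63 with vehicle. The exons of Xrcc6 overlap those of Desi1 over 344 bases, and Desi1 was at 3.21 FPKM with the combination, 2.49 with SAHA, 1.84 with ATRA and 1.65 with vehicle, whose part in the Xrcc6 values was not tested. Prkdc, the DNA-dependent kinase gene, was at 0.634 FPKM with the combination, 0.778 with SAHA, 0.479 with ATRA and 0.396 with vehicle. Lig4, the end joining ligase gene, was at 0.510 FPKM with the combination, 0.450 with SAHA, 0.199 with ATRA and 0.154 with vehicle, so both libraries with SAHA were above both without.

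Among the checkpoint kinases, the sensor Atr was highest with SAHA, where its effector Chek1 was lowest. Atr was at 1.06 FPKM with the combination, 2.48 with SAHA, 1.21 with ATRA and 1.43 with vehicle, with the other libraries close together. Its exons overlap those of 1700065D16Rik over 726 bases. That gene was at 0.232 FPKM with the combination and at 0 with SAHA, ATRA and vehicle, and its part in the Atr values was not tested. Chek1 (chromosome 9, 36708482 to 36727065, minus strand) was at 0.393 FPKM with the combination, 0.321 with SAHA, 1.53 with ATRA and 1.29 with vehicle, so that both libraries with SAHA were low. Of the other sensor and effector pair, Atm lay between 0.790 FPKM with the combination and 1.10 with vehicle, and Chek2 was at 3.38 FPKM with the combination, 1.72 with SAHA, 1.83 with ATRA and 1.40 with vehicle. Wee1, the kinase that blocks entry into mitosis, was at 1.38 FPKM with the combination, 0.743 with SAHA, 2.44 with ATRA and 2.16 with vehicle.

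Checkpoint mediators act either at replication forks or at breaks. Clspn, which brings CHK1 to ATR, was at 0.902 FPKM with the combination, 0.335 with SAHA, 1.28 with ATRA and 0.939 with vehicle. Timeless, a fork protection gene, was at 1.11 FPKM with the combination, 0.503 with SAHA, 1.29 with ATRA and 0.903 with vehicle. Both were more than 2-fold higher with the combination than with SAHA, at ratios of 2.70 and 2.21. The break mediators varied less: Trp53bp1 lay between 1.64 and 1.89 FPKM, and Mdc1 was at 2.75 FPKM with the combination, 2.33 with SAHA, 1.98 with ATRA and 2.27 with vehicle.

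**Figure D3:**
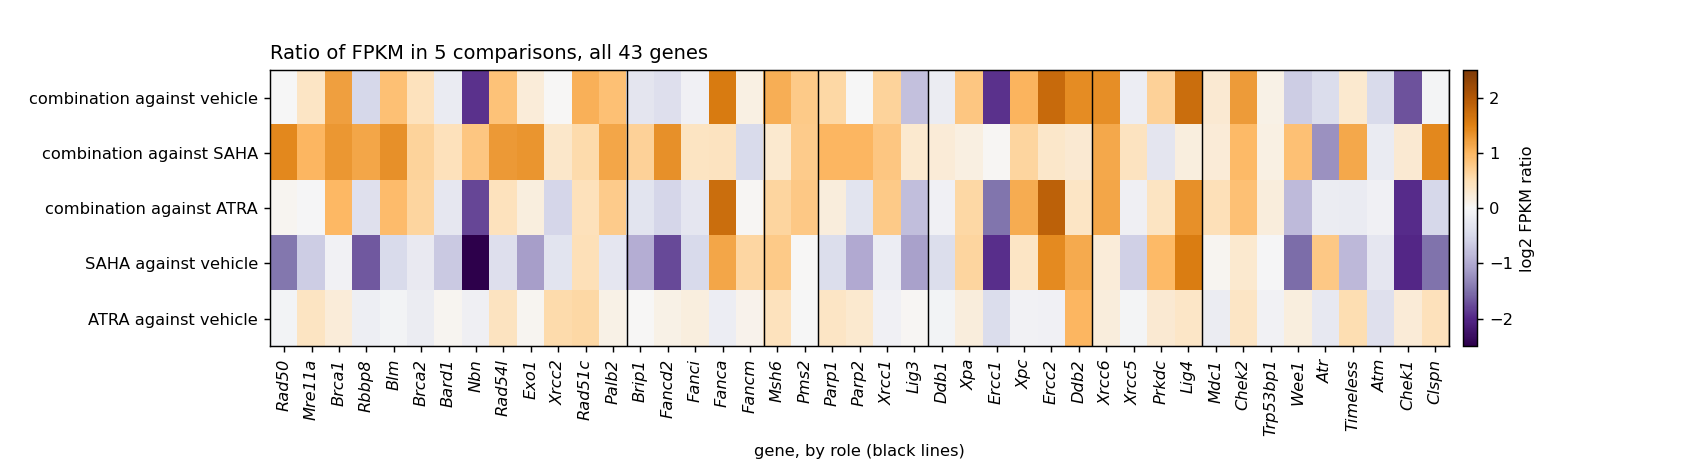
Log2 of the FPKM ratio of each of the 43 genes (columns, grouped by role with black lines) in 5 comparisons (rows), orange for higher and purple for lower in the group named first. The row of the combination against SAHA is orange for 39 of 43 genes, and Nbn, Ercc1 and Chek1 are purple in each of the 3 rows that set a library with SAHA against one without. Of the 8616 genes averaging 1 FPKM or more, not drawn here, 5746 were higher with the combination than with SAHA.

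The same genes can be divided by their known link to S phase. The 15 textbook E2F or S phase members were Brca1, Brca2, Bard1, Rad54l, Blm, Exo1, Fanca, Fancd2, Fanci, Brip1, Msh6, Xrcc2, Chek1, Timeless and Clspn. They were not chosen by promoter letters: Chek2, Rad51c, Fancm, Xrcc6 and Mdc1 had E2F-type letters and are among the other 28. Of the 15, 13 had a lower FPKM with SAHA than with vehicle, 4 of them at least 2-fold (Chek1, Clspn, Exo1 and Fancd2). The median ratio of the 15 was 0.705. Of the other 28 members 15 were lower, 7 of them at least 2-fold, with a median ratio of 0.935. The shares at least 2-fold lower, 26.7% and 25.0%, were near the 25.0% of all 11051 genes, whose median ratio was 0.868. With the combination against SAHA, all 15 S phase members were higher, 7 at least 2-fold, with a median ratio of 1.59, and 24 of the other 28 were higher, 7 at least 2-fold, with a median of 1.41, against 6.61% and a median of 1.12 over all 11051 genes. Of the 8616 genes averaging 1 FPKM or more, 4875 were lower with SAHA than with vehicle, and 5746 were higher with the combination than with SAHA. No test sets the S phase members and the other members apart.

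Genes of cell division also differed between these libraries. The summed FPKM of 18 mitosis genes was 147 with the combination, 44.9 with SAHA, 165 with ATRA and 154 with vehicle, and that of 22 DNA replication genes was 101 with the combination, 73.8 with SAHA, 183 with ATRA and 137 with vehicle. With SAHA against vehicle 15 of 18 mitosis genes were lower on the log2(FPKM + 1) scale, against 16.0% of all 8616 genes, and with the combination against SAHA 17 of 18 were higher, against 3.04%. Of 20 counted replication genes, 6 were lower past the same mark with SAHA than with vehicle, against the same 16.0%. With the combination against SAHA 1 was higher past it, against 3.04%. Short of the mark most went the same way. With SAHA against vehicle 19 of 20 were below 0, with a median of -0.81, against -0.12 over all genes. With the combination against SAHA 18 were above 0, with a median of 0.63, against 0.14 over all genes. The mitosis sum thus lay near that of vehicle with the combination, and the replication sum did not, but sums are weighted toward highly expressed genes. Gene by gene the lists differed less. With the combination against vehicle the median log2(FPKM + 1) difference was -0.12 for mitosis genes, with 6 of 18 above 0. For the counted replication genes it was -0.23, with 7 of 20 above 0. The part of cell division in the repair gene values was not tested.

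Of 117 other repair and checkpoint genes, all were in the table and 77 had a mean of at least 1 FPKM. On the log2(FPKM + 1) scale, 5 were higher and 8 lower with SAHA than with vehicle, with a median of -0.17, against 7.88% higher, 16.0% lower and a median of -0.12 over all 8616 genes. With the combination against vehicle 8 were higher and 4 lower, with a median of 0.06, against 11.1% higher, 12.6% lower and a median of 0.04 over all. Against SAHA, 1 was higher with the combination and 0 lower, with a median of 0.25, against 3.04% higher, 0.929% lower and a median of 0.14 over all. With the combination against ATRA 7 were higher and 4 lower, against 10.5% and 11.9% of all, and with ATRA against vehicle 0 were past the mark, against 0.917% higher and 1.20% lower. The 26 counted members had medians of 0.24 with the combination against vehicle, 0.43 with the combination against SAHA, 0.16 with the combination against ATRA, -0.19 with SAHA against vehicle and -0.03 with ATRA against vehicle.

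Several of these other genes sit beside members in a complex or pathway. Trp53, the gene of p53, was at 2.49 FPKM with the combination, 1.46 with SAHA, 11.8 with ATRA and 12.5 with vehicle. Usp1, the enzyme that removes ubiquitin from FANCD2, was at 1.92 FPKM with the combination, 1.18 with SAHA, 5.23 with ATRA and 6.02 with vehicle, and Fance, a Fanconi core complex gene, was at 7.80 FPKM with the combination, 5.16 with SAHA, 2.03 with ATRA and 2.16 with vehicle. In base excision repair, Polb, the repair polymerase gene, was higher with both SAHA treatments (6.81 FPKM with the combination, 5.48 with SAHA, 1.99 with ATRA and 2.19 with vehicle). Apex1, the enzyme that cuts at abasic sites, was lower in them (3.54 FPKM with the combination, 5.68 with SAHA, 12.8 with ATRA and 16.7 with vehicle).

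The TFIIH genes Ercc3 and Gtf2h5 were, like their partner Ercc2, higher in both libraries with SAHA than in both without. Other TFIIH genes did not all follow. Gtf2h3 and Gtf2h4 went the same way without passing the mark, and Gtf2h1 and Gtf2h2 did not. Gtf2h1 was at 7.84 FPKM with the combination, 4.93 with SAHA, 6.98 with ATRA and 8.29 with vehicle. Gtf2h2 was at 1.53 FPKM with the combination, 1.86 with SAHA, 1.47 with ATRA and 1.55 with vehicle. Ercc3 was at 7.86 FPKM with the combination, 6.43 with SAHA, 1.99 with ATRA and 2.27 with vehicle, and Gtf2h5 was at 10.7 FPKM with the combination, 10.7 with SAHA, 4.79 with ATRA and 4.60 with vehicle. H2afx, the histone that marks breaks when phosphorylated, was the 1 gene past the mark with the combination against SAHA, at 12 FPKM with the combination, 5.42 with SAHA, 15.5 with ATRA and 12.7 with vehicle. Polh, the polymerase that passes ultraviolet lesions, was at 13.1 FPKM with the combination, 9.39 with SAHA, 4.77 with ATRA and 3.94 with vehicle.

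Several members start back to back with a gene on the other strand, so that a short stretch of DNA lies between both starts. By GENCODE, 13 members had a protein-coding neighbour whose start lay on the other strand within 1000 bases upstream, and in 10 pairs the neighbour had a mean of at least 1 FPKM. This rule was chosen after the values were seen and used GENCODE gene starts. For Xrcc6, Ercc1 and Chek1 the GENCODE start lies upstream of the RefSeq promoter shown above. With SAHA against vehicle, member and neighbour were on opposite sides of a ratio of 1 in 8 of the 10 pairs, with the combination against vehicle in 3, with the combination against SAHA in 4, with the combination against ATRA in 5 and with ATRA against vehicle in 4. Many of these ratios lie near 1, where the side has little meaning.

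In SAHA against vehicle, 3 pairs stood well apart. Prkdc had a ratio of 1.96 for SAHA against vehicle, while Mcm4, a subunit of the replicative helicase that starts 466 bases away, had 0.378, at 3.47 FPKM with the combination, 2.07 with SAHA, 6.23 with ATRA and 5.46 with vehicle. Fancd2 had 0.294, while Emc3, a membrane protein insertion gene 30 bases away, had 1.46. Xpc had 1.31, while Lsm3, an RNA-binding complex gene 40 bases away, had 0.453. Brca1 and Nbr1, an autophagy receptor gene that starts 194 bases away inside the Brca1 promoter shown above, had ratios of 2.32 and 1.20 for the combination against vehicle and of 0.941 and 1.45 for SAHA against vehicle. Rad54l and Pomgnt1, a glycosylation enzyme gene that starts 150 bases away, stood apart with the combination instead, at ratios of 1.83 and 0.442 against vehicle and of 2.42 and 0.474 against SAHA. The part of the overlap of Rad54l with Lrrc41 in these ratios was not tested. Lig4 and Abhd13, which start 21 bases apart, were both higher with SAHA than with vehicle, at ratios of 2.92 and 1.64.

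**Figure D4:**
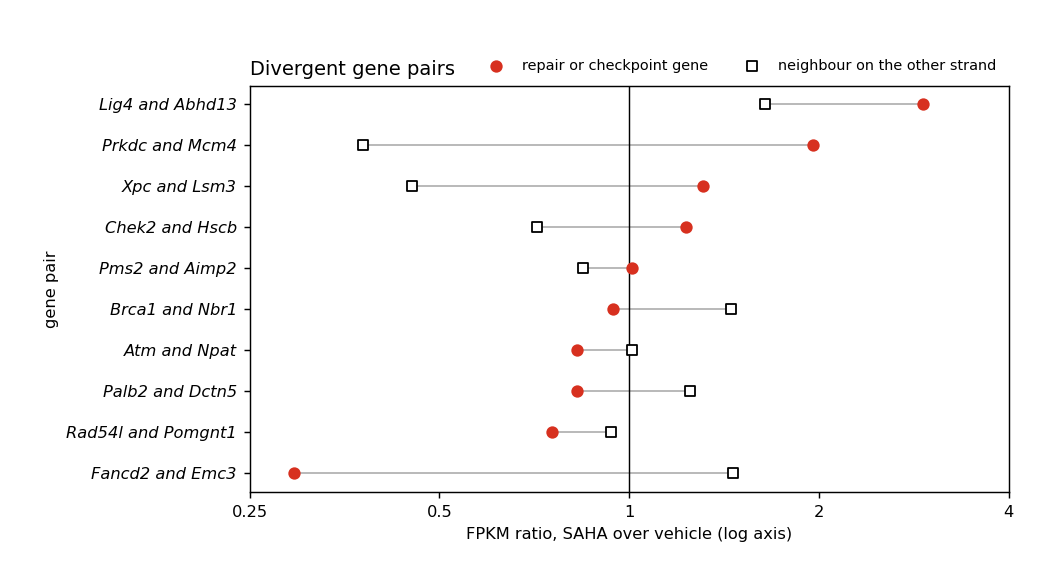
FPKM ratio of SAHA over vehicle (log axis) for 10 members (red circles) and for the gene that starts back to back with each on the other strand (open squares). Prkdc (1.96) and Mcm4 (0.378), Xpc (1.31) and Lsm3 (0.453), and Fancd2 (0.294) and Emc3 (1.46) lie on opposite sides of 1.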

How the data were processed

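RNA-seq was done on 4 cultures of mouse liver tumour-initiating cells, 1 library per group. Total RNA was depleted of ribosomal RNA, per the labels' protocols. The submitters' processing notes name Trimmomatic 0.32 for trimming, Cuffdiff and the build mm10. The aligner, gene models, strand setting and library scaling were not named in the sources used here. Per the file headers the authors deposited FPKM, with a column for each library.

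From these values, with Python 3.11.15 and pandas 2.3.3, FPKM ratios and differences of log2(FPKM + 1) were computed for 5 comparisons. No test was possible without replicates, and genes were counted by size. The log2(FPKM + 1) counting rule was tested on simulated data. The FPKM ratio rule was not tested in this way, and how either rule counts genes of low level was not tested. Depth was estimated from the lowest repeated step of FPKM times transcript length. Lengths, exons and gene coordinates are from GENCODE M21 (GRCm38, that is mm10), matched by symbol, and promoters are from RefSeq on GRCm38.p6. The members and all lists were chosen with earlier results of these data known. All 43 members could be named. Genes of the other lists were named when past the size mark, up to 6 per list and comparison. Vim, the markers near 0, Pdgfrb, Krt7, Sox9, Krt19, Hba-a1, Cdkn1a and genes that overlap or neighbour a member were named outside this rule. The TFIIH genes Gtf2h1, Gtf2h2, Gtf2h3 and Gtf2h4 were also named outside this rule. Motif letters, promoters shown and the rule for back-to-back genes were chosen after seeing the data. Alternatives were another pseudocount, other filters, centring, another size mark and 2 added after seeing the data: the plain FPKM ratio and leaving out members with overlapping exons.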

Additional observations from a re-analysis of the deposited data

Results flagged for a closer look

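Rad50 was marked for a closer look because the values for each compound, with and without the other compound, lay on opposite sides of 0. The effect of ATRA on log2(FPKM + 1) was 1.02 in cells given SAHA (combination against SAHA) and -0.05 in cells without it (ATRA against vehicle). The effect of SAHA was 0.04 in cells given ATRA (combination against ATRA) and -1.03 in cells without it (SAHA against vehicle). These 4 values come from the same 4 libraries, in which the SAHA library was low. The values of -0.05 and 0.04 are close to 0, so the direction there rests on little, and the difference was not tested. After centring, the values were 0.86 in the combination against SAHA and -0.91 in SAHA against vehicle, both short of the mark.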

How the results depend on the processing

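No paired analysis was possible because each group has 1 library and the labels give no replicate numbers. No called member changed direction under the alternatives run. The departure from additivity is the log2(FPKM + 1) difference of the combination from vehicle minus those of ATRA and of SAHA. Its median over the 26 counted members was 0.40, against 0.15 over all 8616 genes, 0.61 against 0.19 with a pseudocount of 0.1 FPKM, and 0.24 against -0.01 after centring. Shares in brackets are those of all genes under the same setting. With a pseudocount of 0.1, 5 members (17.2%) were higher and 2 (18.0%) lower in the combination against vehicle, 5 (5.69%) higher and 1 (2.15%) lower against SAHA, 2 (17.7%) lower against ATRA, and 1 (12.8%) higher and 6 (22.6%) lower in SAHA against vehicle. With a mark of 1.5-fold, 8 (23.9%) were higher and 2 (22.8%) lower in the combination against vehicle, 10 (11.5%) and 1 (3.10%) against SAHA, 6 (22.9%) and 2 (22.8%) against ATRA, and 2 (18.1%) and 7 (28.4%) in SAHA against vehicle. By the plain FPKM ratio, whose shares stand with the results above, these were 10 and 3, 14 and 1, 5 and 3, and 4 and 11, with 1 higher in ATRA against vehicle. With a mean of at least 5 FPKM, which leaves 5 members, 1 was higher in the combination against vehicle (17%), SAHA (5.58%) and ATRA (14.7%), and 0 were lower in the combination (13.8%) or SAHA (20.1%) against vehicle. After centring, 0 (2.17%) were higher in the combination against SAHA, 1 (12.7%) was lower against ATRA, and 1 (10.2%) was higher and 2 (13.4%) lower in SAHA against vehicle, Rad50 being short of the mark at -0.91. Leaving out members that overlap another row leaves 16. Of these, 0 (11.1%) were higher and 0 (12.6%) lower in the combination against vehicle, 1 (3.04%) higher against SAHA and 0 (10.5%) higher against ATRA. The shares for this setting are over all 8616 genes, overlapping or not. The filter and the overlap rule leave fewer genes by construction, and the cause of the other shifts was not tested. Single libraries limit what low members such as Ddb2 and Lig4 can show.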

Other observations

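Trp53 was low in both libraries with SAHA. Of 14 counted p53 targets, 1 was higher and 1 lower on the log2(FPKM + 1) scale with the combination than with vehicle. Over all 8616 genes the shares were 11.1% higher and 12.6% lower. The medians were 0.00 for the targets and 0.04 for all genes. With SAHA against vehicle 1 target was higher and 2 were lower, against 7.88% and 16.0% of all genes. The medians there were -0.37 for the targets and -0.12 for all genes. Phlda3, a repressor of AKT signalling, was at 3.22 FPKM with the combination, 2.19 with SAHA, 9.66 with ATRA and 7.57 with vehicle. Plk2, a stress-inducible kinase gene, was at 19.5 FPKM with the combination, 11.5 with SAHA, 6.59 with ATRA and 4.60 with vehicle. Gadd45a, a growth arrest gene, was at 9.06 FPKM with the combination, 0.876 with SAHA, 7.12 with ATRA and 8.38 with vehicle. Cdkn1a, the p21 gene and outside the naming rule, lay between 3.15 and 3.95 FPKM. Parp3, a poly(ADP-ribose) polymerase family gene, was at 0.972 FPKM with the combination, 0.912 with SAHA, 3.82 with ATRA and 7.79 with vehicle.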
